A study of Oedaleus asiaticus with 9 samples.

Results

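The microRNAs miR-71 and miR-263 were followed in female *Oedaleus asiaticus*, a band-winged grasshopper, across 3 stages of development. Every entry of the deposited miRNA table whose name begins with miR-71 or miR-263 was taken, which gave 5 of 365 entries, 3 of miR-71 and 2 of miR-263. The nymphs were in the 3rd or the 5th instar and the adults had emerged. All were labelled as 3 days old, taken here as days within the stage, so age since hatching differs between the stages. They were under normal feeding with no treatment, and each stage had 3 libraries. The labels give no body part and do not state that replicates were different animals. The p-values therefore reflect only the spread between these samples, and that spread may be technical. In such bulk samples, fewer cells that make a miRNA and less of it per cell cannot be told apart.

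MicroRNAs are short RNAs that lower the output of messenger RNAs by pairing with them, mainly through the seed, bases 2 to 8 of the miRNA. Chitin is the polymer that stiffens insect cuticle, and at each moult the old cuticle is digested by chitinases while chitin synthase builds the new one. In the migratory locust, a related grasshopper, miR-71 represses a chitin synthase and miR-263 represses a chitinase, and disturbing either disturbs the moult. In many insects miR-71 is encoded beside miR-2 and miR-13, while *Drosophila* has lost it. In flies, miR-263 protects the precursor cells of sensory bristles from cell death. The libraries were taken 3 days into each stage, and the moult itself was not sampled.

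The sequences show which entries could act alike and which could share reads. They are printed as the table lists them, with T for U, 5′ to 3′, and with the seed in capitals.
miR-71-x: tGAAAGACatgggtagtgagat
miR-71-z: tGAAAGACatgggtagtgagatga
miR-71-y: tCTCACTAccttgtctttcatg
miR-263-x: aATGGCACtggaagaattcacgg
miR-263-z: cTGGAAGAattcacagaat
The 22 nt miR-71-x and the 24 nt miR-71-z begin at the same base and share the seed, and miR-71-z is longer by 2 bases at its 3′ end. Reads of one could therefore be counted in the other. The 22 nt miR-71-y has another seed and is complementary to miR-71-x over 2 runs, bases 12 to 21 of miR-71-x against bases 1 to 10 of miR-71-y, and bases 1 to 9 against bases 12 to 20. The opposite arms of a miRNA hairpin pair in this way. The 23 nt miR-263-x and the 19 nt miR-263-z have 14 bases in common, bases 8 to 21 of the former and 1 to 14 of the latter, so miR-263-z lacks most of the seed of miR-263-x and has a different one. The 5 entries thus held 4 distinct seeds. Outside the 5, 0 entries of the table had any of these seeds. What the suffixes x, y and z stand for is not given in the sources used.

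The libraries held 1462586 to 5309504 counts over all entries. The 3rd instar libraries had 3042011 to 5309504, the 5th instar libraries 1918962 to 2282357 and the adult libraries 1462586 to 3955332. Levels are given as CPM, the count scaled to a fixed library size, after scaling by TMM factors of 0.854 to 1.17, which set libraries to a common typical entry. A count of 0 allows a level of at most 0.652 CPM in the largest scaled library and 1.98 CPM in the smallest (3 counts). This limit and the intervals below cover counting error only. No pair of libraries of a stage agreed within sampling noise (chi-square per degree of freedom 67.2 or more).

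The 5 entries spanned more than 3 orders of magnitude on the log10 scale. miR-71-x was the most abundant, at 798 ± 149 CPM over the 9 libraries (SD), and ranked 30th of 365 entries by mean level. miR-71-y followed at 120.0 ± 27.2 CPM and rank 53. The order was then miR-263-x at 14.5 ± 5.17 CPM (rank 120), miR-71-z at 7.38 ± 3.78 CPM (rank 144) and miR-263-z at 0.252 ± 0.233 CPM (rank 343). Every library had miR-71-x above miR-71-y, and miR-71-y above both miR-263-x and miR-71-z. The neighbours miR-263-x and miR-71-z overlapped in the 3rd instar, where miR-71-z spanned 11.7 to 12.4 CPM and miR-263-x 10.7 to 25.0 CPM. Of all miR-71 counts, 86.5% were miR-71-x, 12.6% miR-71-y and 0.828% miR-71-z. Of the miR-263 counts, 98.4% were miR-263-x.

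Between the stages, the data showed a lower miR-71-x in the 5th instar and the adult than in the 3rd instar, to 0.751 and 0.729 of its level, and little difference across the final moult. None of the differences passed the test. The main form of the miRNA that represses chitin synthase in locusts, miR-71-x, stood at 975, 1100.0 and 823 CPM in the 3 libraries of the 3rd instar. It stood at 695, 786 and 694 CPM in the 5th instar and at 769, 646 and 698 CPM in the adult. After TMM scaling, all 3 libraries of the 3rd instar lay above the 6 others. The nearest pair was 823 CPM in the 3rd instar and 786 CPM in the 5th. Without TMM factors this separation was lost. The deposited TPM, counts scaled by a library total alone, were 940, 927 and 689 in the 3rd instar. They were 702, 841 and 797 in the 5th instar and 772, 561 and 799 in the adult.

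The mean level of miR-71-x was 966 ± 139 CPM for the 3rd instar, 725 ± 52.7 for the 5th and 704 ± 61.7 for the adult (SD, n = 3). The level in the 5th instar was 0.751 of that in the 3rd (log2 fold change -0.41 ± 0.15, SE, 95% interval -0.73 to -0.096), with an adjusted p of 0.195 in edgeR's quasi-likelihood test (Benjamini-Hochberg, over 179 entries). In the adult it was 0.729 of the 3rd instar level (log2 fold change -0.46 ± 0.15, interval -0.77 to -0.14, adjusted p = 0.0756 by edgeR). Between the 5th instar and the adult it differed by -0.042 ± 0.15 on the log2 scale (interval -0.36 to 0.27, adjusted p = 0.9502 by edgeR), so an adult level between 0.779 and 1.21 of that in the 5th instar is within the interval. The comparisons with the 3rd instar share its libraries and are not separate evidence.

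A call required both limits that the study states, 0.05 for the adjusted p and 1 for the log2 fold change in either direction. Of the 5 entries 4 could be tested, miR-263-z being too rare, and edgeR called 0 of the 4 in each comparison. Of all 179 tested entries it called 1.68% between the nymphal stages, 1.12% between the 5th instar and the adult, and 3.91% between the 3rd instar and the adult. DESeq2 called 0 of the 4 in these comparisons too, beside 10, 2 and 16 of all 179 entries in the same order. Without the fold limit, edgeR again passed 0 of the 4, beside 2.23%, 1.68% and 7.82% of all entries in the same order. An unadjusted p under 0.05 was reached by 2 of the 4, miR-71-x and miR-71-z, in both comparisons with the 3rd instar. Of all entries 17.3% did so in the 5th instar and 35.8% in the adult. Between the 5th instar and the adult 0 of the 4 did so, and 10.1% of all entries. In 1 test over all stages, 0 of the 4 passed an adjusted p of 0.05 by edgeR (background 4.47%), with 0.121 for miR-71-x and 0.149 for miR-71-z. DESeq2 passed miR-71-x in that test (adjusted p = 0.0164), 1 of the 23 of all 179 entries that it passed. In TMM-scaled CPM, both stages after the 3rd instar lay wholly below it for miR-71-x and miR-71-z. They did so for 15 of all 179 entries (8.38%). Counted by itself, with those 15 included, the 5th instar lay wholly below for 15.1% of all entries, and so did the adult.

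**Figure D1:**
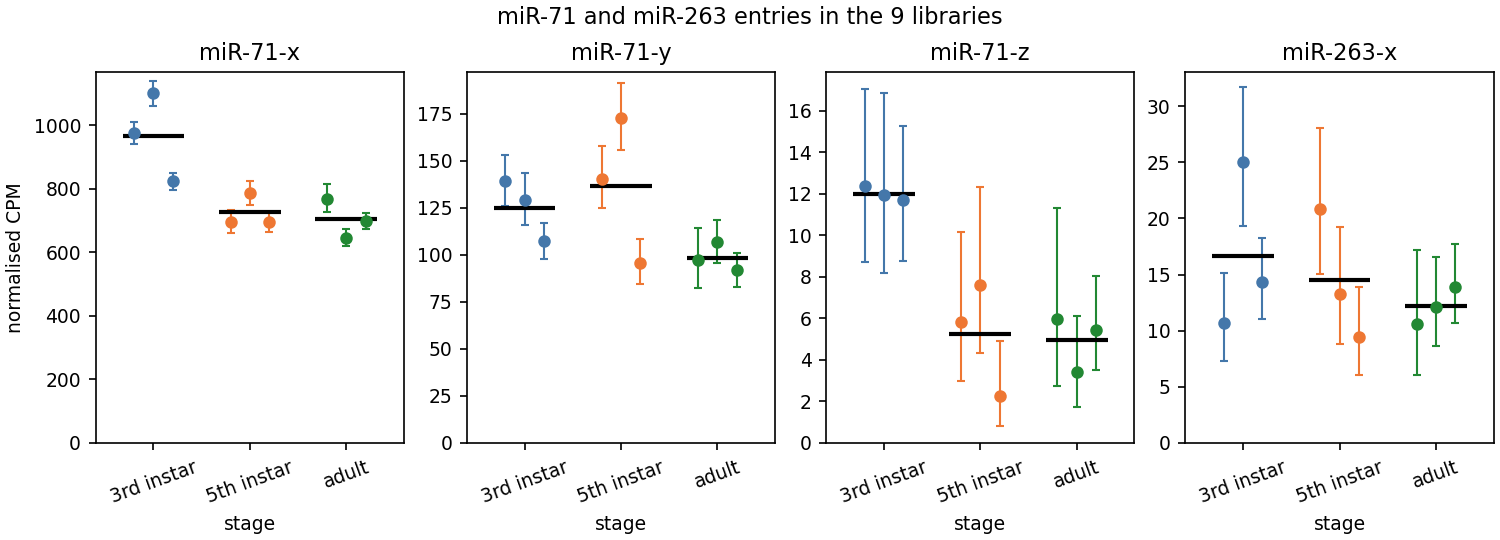
Normalised CPM (y axis, from 0) of the 4 tested entries in each library, by stage (x axis). Points are libraries, bars their 95% Poisson counting intervals, and black lines the means of 3 libraries. For miR-71-x and miR-71-z the 3 libraries of the 3rd instar lie above all others, while for miR-71-y and miR-263-x the 3rd and 5th instars overlap.

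The longer form miR-71-z, which has the same seed, stood at 12.4, 11.9 and 11.7 CPM in the 3rd instar, from 37, 32 and 53 counts. It stood at 5.81, 7.60 and 2.25 CPM in the 5th instar (12, 16 and 6 counts) and at 5.95, 3.42 and 5.43 CPM in the adult (9, 11 and 25 counts). The 3rd instar libraries again lay above the other 6, with a spread of 2.88% of their mean that was smaller than the 16.0% counting error alone would give. The log2 fold change was -1.21 ± 0.46 in the 5th against the 3rd instar (interval -2.22 to -0.20, adjusted p = 0.195 by edgeR). In the adult against the 3rd instar it was -1.29 ± 0.46 (interval -2.29 to -0.29, adjusted p = 0.0991 by edgeR), and between the 5th instar and the adult -0.081 ± 0.48 (interval -1.13 to 0.97, adjusted p = 0.969 by edgeR). These sizes exceeded the fold limit against the 3rd instar, and the low counts left wide intervals.

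The complementary form miR-71-y showed another course. It stood at 139, 129 and 107 CPM in the 3rd instar, at 141, 173 and 95.8 CPM in the 5th and at 97.3, 107 and 91.7 CPM in the adult. The nymphal stages overlapped, and the 5th instar held both the highest value and one below all those of the 3rd instar. After TMM scaling the adult libraries were all below those of the 3rd instar, as for 15.1% of all entries, the nearest values being 106.6 and 107.1 CPM. In the deposited TPM these stages overlapped, at 134, 109 and 89.7 in the 3rd instar and 97.7, 92.5 and 105 in the adult. The log2 fold change was 0.12 ± 0.22 in the 5th against the 3rd instar (interval -0.35 to 0.60, adjusted p = 0.826 by edgeR). It was -0.47 ± 0.22 in the adult against the 5th instar (interval -0.94 to 0.0056, adjusted p = 0.439 by edgeR) and -0.34 ± 0.22 in the adult against the 3rd (interval -0.82 to 0.13, adjusted p = 0.265 by edgeR).

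The miRNA that represses a chitinase in locusts, miR-263-x, was rare in these libraries, with 16 to 67 counts in each. It stood at 10.7, 25.0 and 14.3 CPM in the 3rd instar, at 20.8, 13.3 and 9.39 CPM in the 5th and at 10.6, 12.1 and 13.9 CPM in the adult. All 3 stages overlapped. Within nymphal stages its spread was wide, 44.6% of the mean for the 3rd instar and 40.1% for the 5th, against 14.3% and 18.2% from counting alone, while in the adult it was 13.6% against 18.6%. Log2 fold changes were -0.20 ± 0.39 in the 5th against the 3rd instar, -0.23 ± 0.40 in the adult against the 5th and -0.44 ± 0.39 in the adult against the 3rd (adjusted p 0.828, 0.845 and 0.427 by edgeR). The interval of the last, -1.30 to 0.43, covers a fall to 0.407 and a rise to 1.34 of the 3rd instar level.

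The short miR-263-z had 1 count in 6 libraries and 0 in the other 3, namely 3rd instar 1, 5th instar 2 and 5th instar 3. In those 3 libraries the limit that a count of 0 allows is 1.003, 1.42 and 1.13 CPM. No difference between stages was detectable at this depth.

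**Figure D2:**
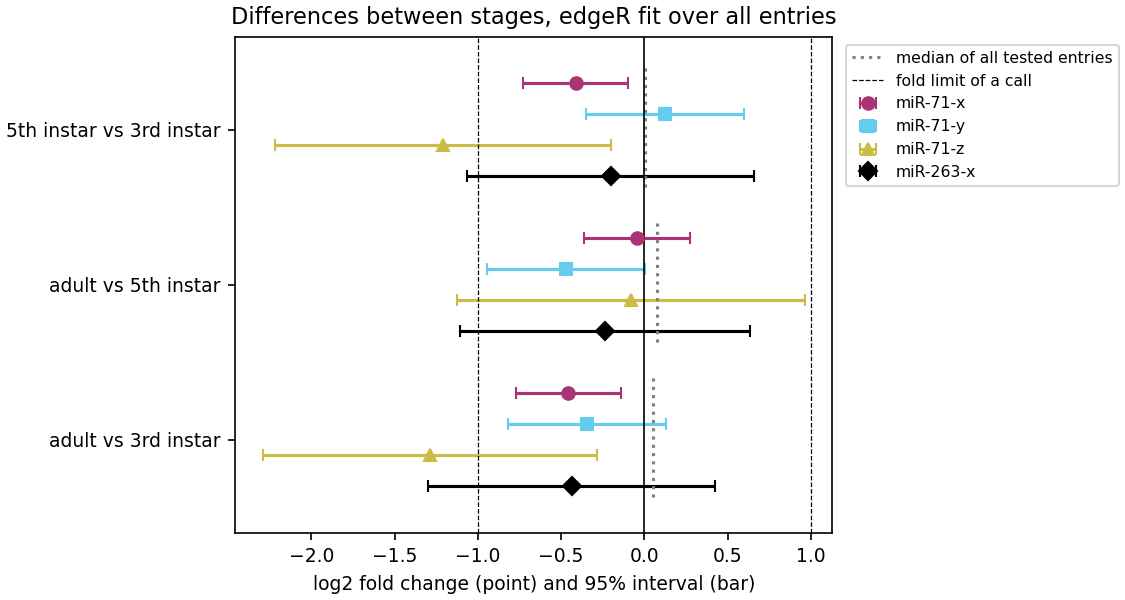
Log2 fold change of the 4 tested entries (x axis) in each of the 3 comparisons (y axis), with 95% intervals from edgeR's fit over all 179 tested entries. Dashed lines mark the fold limit at -1 and 1 and dotted lines the median of all tested entries. The intervals of miR-71-x and miR-71-z lie below 0 in both comparisons with the 3rd instar before adjustment, and those of miR-71-y and miR-263-x include 0 in all 3.

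The median log2 fold change over all tested entries was 0.0036, 0.079 and 0.050 for the 5th against the 3rd instar, for the adult against the 5th and for the adult against the 3rd. The miR-71-x values were thus lower than the typical entry by 0.42 and 0.51 in the comparisons with the 3rd instar. In the 5th against the 3rd instar 37 of the 179 entries had a more negative value than miR-71-x and 6 a more negative value than miR-71-z. In the adult against the 3rd instar these numbers were 41 and 9.

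Shares of 2 entries within a library do not depend on how libraries are scaled, so the forms of miR-71 were also set against each other in this way, with Wilson 95% intervals and without a test. Of the counts of miR-71-x and miR-71-z together, the longer form held 1.25%, 1.07% and 1.40% in the 3rd instar, 0.829%, 0.958% and 0.324% in the 5th and 0.769%, 0.527% and 0.772% in the adult. The 3rd instar thus lay above both later stages, although intervals of single libraries overlapped, as with 0.761% to 1.51% in 3rd instar 2 and 0.590% to 1.55% in 5th instar 2. Stage means were 1.24% ± 0.163, 0.703% ± 0.335 and 0.689% ± 0.141 (SD, n = 3).

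Lower shares of a longer form after the 3rd instar were also seen in other miRNAs. The table has 24 pairs of tested entries in which the longer begins with the whole sequence of the shorter, some of them of different family names and some sharing an entry. The mean share of the longer entry was lower in the 5th than in the 3rd instar for 20 of these pairs and lower in the adult than in the 3rd instar for 17. The stages did not overlap for 8 pairs with a lower share in the 5th instar (33.3%) and for 10 with a lower share in the adult (41.7%), and in 0 pairs was the share higher without overlap in either. In the 5th instar the share of miR-71-z was 0.566 of that in the 3rd instar, the smallest ratio of the 24, against a median of 0.881. In the adult it was 0.555 of the 3rd instar share, against a median of 0.907, and 1 pair had a smaller ratio. These pairs were examined after the values of miR-71-z had been seen.

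The share of miR-71-y among the counts of miR-71-y and miR-71-x was 12.5%, 10.5% and 11.5% in the 3rd instar. The 5th instar had 16.8%, 18.0% and 12.1%, and the adult 11.2%, 14.2% and 11.6%. Libraries 1 and 2 of the 5th instar were above all other libraries, with intervals of 15.1% to 18.6% and 16.4% to 19.8%, and the interval of 5th instar 3 reached from 10.8% to 13.6%. The 5th instar therefore overlapped both other stages. Against miR-71-x, miR-263-x made up 1.09% to 2.22% of the counts of both in the 3rd instar, 1.33% to 2.91% in the 5th and 1.36% to 1.95% in the adult, with all stages overlapping.

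**Figure D3:**
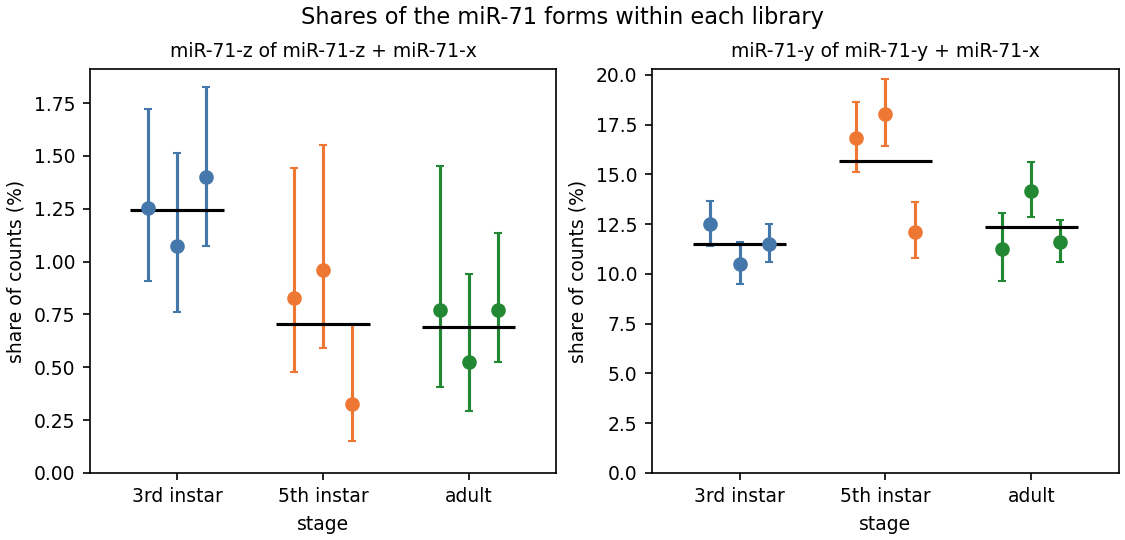
Share of miR-71-z (left) and of miR-71-y (right) among its own counts and those of miR-71-x, in percent from 0 (y axis), by stage (x axis). Points are libraries with Wilson 95% intervals and black lines are means of 3 libraries. On the left the 3rd instar lies between 1.07% and 1.40%, above the later stages, and on the right 2 libraries of the 5th instar stand at 16.8% and 18.0%.

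The families miR-2 and miR-13, which lie beside miR-71 in many insect genomes, held 5 entries of 4 distinct sequences, of which 3 were tested. In none of the comparisons was one called. The most abundant, miR-2-y, was at 1535 ± 123 CPM in the 3rd instar, 1593 ± 73.2 in the 5th and 1345 ± 66.5 in the adult (SD, n = 3). Its log2 fold change was 0.053 ± 0.12 in the 5th against the 3rd instar and -0.19 ± 0.12 in the adult against the 3rd (adjusted p 0.830 and 0.258 by edgeR). The corresponding values of miR-13-y were 0.075 ± 0.14 and -0.090 ± 0.14 (adjusted p 0.826 and 0.677 by edgeR). The remaining tested entry, miR-2-z, was higher in both, at 0.31 ± 0.27 and 0.38 ± 0.27 (adjusted p 0.562 and 0.314 by edgeR). The median of the 3 tested entries was thus the value of miR-13-y, 0.075 in the first and -0.090 in the second of these comparisons. Over all entries it was 0.0036 and 0.050. A test of miR-71-x against these families was not made, and their position in the genome of *Oedaleus asiaticus* was not examined.

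Among the other miRNAs known for ecdysone signalling, moulting or chitin metabolism in insects (let-7, miR-2, miR-8, miR-14, miR-34, miR-100, miR-125 and miR-281), 22 entries were listed and 19 tested. In the 5th against the 3rd instar 10 were higher and 9 lower, with a median log2 fold change of 0.053. In the adult against the 5th instar 12 were higher and 7 lower (median 0.064), and in the adult against the 3rd 13 were higher and 6 lower (median 0.29). Over all entries 50.3%, 58.1% and 54.2% were higher in the same order. edgeR called 0 of the 19 in each comparison. The most abundant, miR-8-y, of a family that controls growth and ecdysone responses in flies, was at 35664 ± 3085 CPM in the 3rd instar, 33561 ± 2128 in the 5th and 43517 ± 18945 in the adult. The entry miR-14-y, which acts in ecdysone signalling in flies and is named here after its values were seen, alone passed an adjusted p of 0.05 without reaching the fold limit. It was lower in the 5th instar by 0.65 ± 0.15 and in the adult by 0.62 ± 0.15 on the log2 scale than in the 3rd instar (log2 fold changes -0.65 and -0.62, adjusted p 0.0484 and 0.0262 by edgeR).

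**Figure D4:**
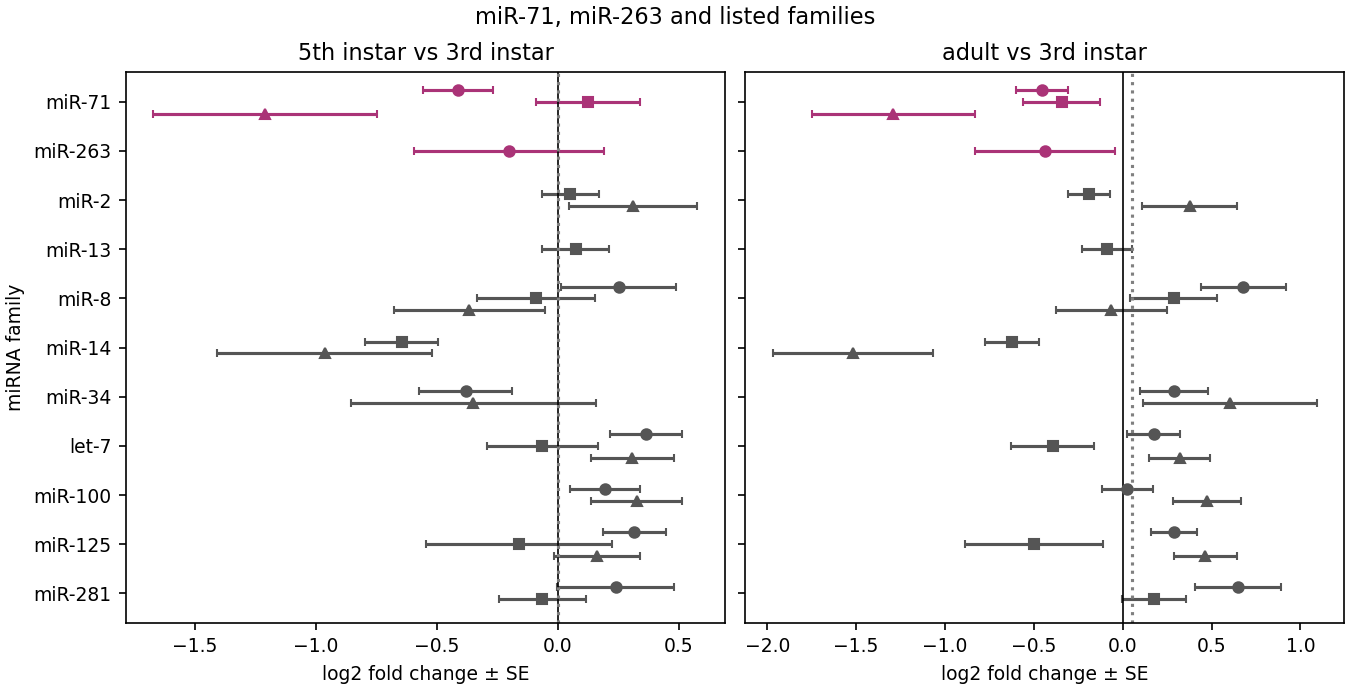
Log2 fold change ± SE (x axis) of each tested entry of miR-71 and miR-263 (purple) and of the listed families (grey), by family (y axis), in the 5th instar (left) and the adult (right) against the 3rd instar. Circles, squares and triangles are the x, y and z entries of a family and dotted lines the median of all tested entries. miR-71-x at -0.41 and -0.46 and miR-14-y at -0.65 and -0.62 lie below the median in both panels.

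To find entries whose course is most like that of the main forms, log2 CPM values (prior count 2) were correlated over the 9 libraries with those of the 175 other tested entries outside the 2 families. The coefficients describe these libraries, whose values share scaling and stage. For miR-71-x the 5 most like were miR-993-y (Pearson's r = 0.901, Spearman's rho = 0.900), miR-927-x (0.899, 0.650), miR-9-x (0.811, 0.817), miR-316-y (0.788, 0.667) and miR-2765-x (0.780, 0.733). The miR-993 gene lies in the Hox cluster in insects, and miR-9 shapes sense organ development in flies. With the stage means taken out, r was 0.884 for miR-993-y, 0.863 for miR-927-x and 0.552 for miR-9-x, but -0.087 for miR-316-y and -0.22 for miR-2765-x. Of these 5, miR-2765-x was called lower in the 5th instar and the adult than in the 3rd (log2 fold changes -1.06 ± 0.16 and -1.50 ± 0.16, adjusted p 0.00233 and 0.000164 by edgeR). The entries miR-2-y and miR-13-y, whose families lie beside miR-71 in many insects, ranked 72nd and 75th (r = 0.154 and 0.0891).

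For miR-263-x the 5 most like were miR-995-y (r = 0.896, rho = 0.967), miR-8109-z (0.837, 0.683), miR-6980-x (0.705, 0.600), miR-929-x (0.667, 0.517) and miR-3963-z (0.644, 0.700). With the stage means taken out, r was 0.961 for miR-995-y, which was about as rare, at 12.3 ± 3.22 CPM over the 9 libraries. miR-8109-z and miR-6980-x, both 19 nt long, varied by more than their mean (12.6 ± 28.1 and 26.5 ± 34.8 CPM). Between miR-71-x and miR-263-x themselves r was 0.389 and rho 0.383. miR-71-x had r = 0.824 with its longer form miR-71-z and 0.394 with miR-71-y. With the stage means taken out these were 0.442 and 0.447.

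How libraries are scaled moved the values of miR-71-x most. TMM factors were 0.854 to 0.984 for the 3rd instar libraries, 1.03 to 1.17 for the 5th and 0.881 to 1.16 for the adult, so they differed between the nymphal stages. With library totals in place of TMM factors, the median of all entries shifted from 0.0036 to 0.30 in the 5th against the 3rd instar and from 0.050 to 0.23 in the adult against the 3rd. The log2 fold changes of miR-71-x became -0.12 and -0.26 (adjusted p 0.736 and 0.359 by edgeR), which is -0.42 and -0.49 relative to that median. Over the 19 alternatives, miR-71-x was between 0.36 and 0.56 below the median in the 5th against the 3rd instar. It was between 0.45 and 0.62 below it in the adult against the 3rd. Subtracting the median takes out a shift that scaling gives to all entries alike, so the agreement among scaling settings follows from the calculation. The fitted values of miR-71-x themselves ranged over -0.48 to -0.12 and -0.53 to -0.26 in these comparisons. In the adult against the 3rd instar, its adjusted p fell under 0.05 with DESeq2 (0.00711). It also did so in edgeR with RLE factors (0.0458) and with a filter of 10 CPM in 3 libraries (0.0337). The log2 fold changes there were -0.51, -0.51 and -0.53, within the fold limit. How many of all entries passed without the fold limit under these settings was not counted. The value of miR-71-z in the 5th against the 3rd instar moved from -1.21 to -0.80 without 5th instar 3, whose 6 counts are its lowest, and to -1.56 without 5th instar 2.

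**Figure D5:**
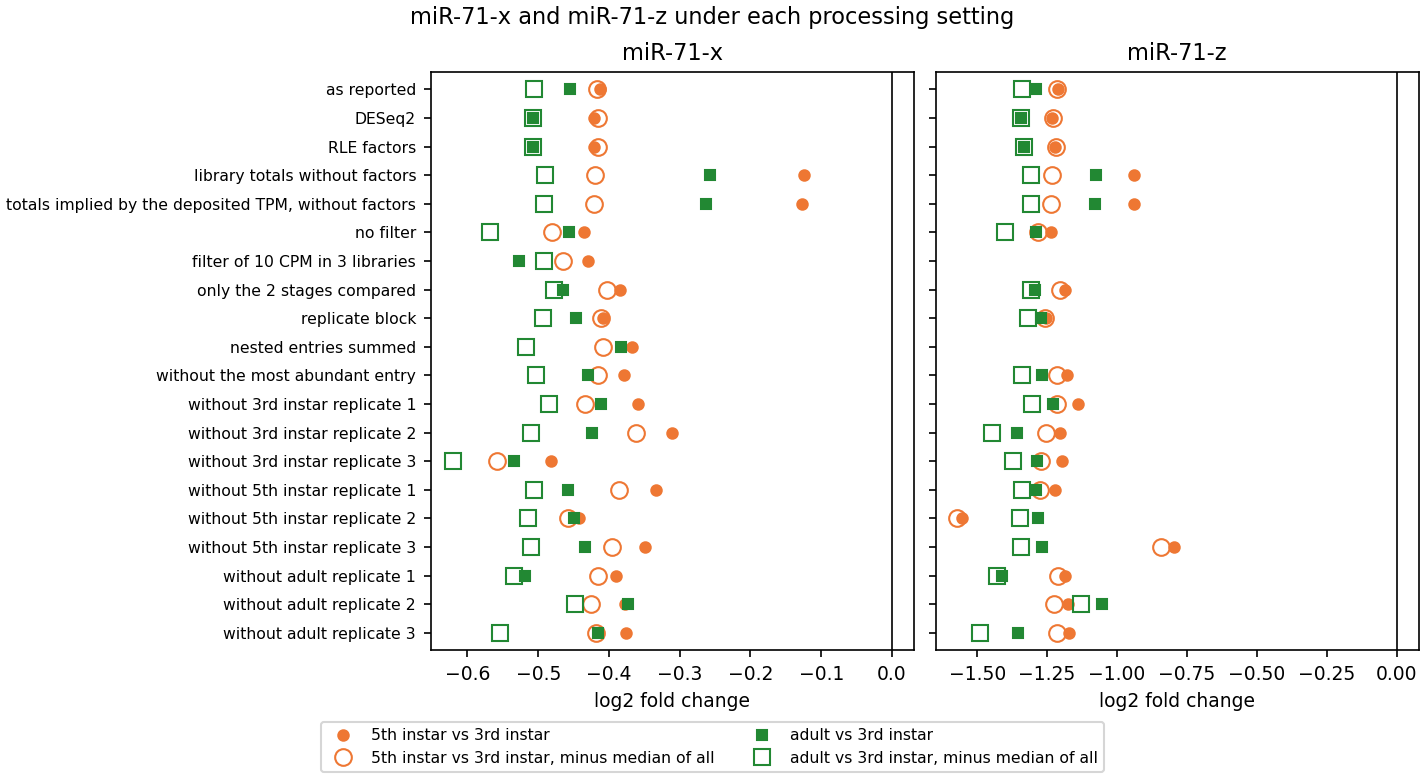
Log2 fold change (x axis) of miR-71-x (left) and miR-71-z (right) in each later stage against the 3rd instar, under each processing setting (y axis). Filled points are fitted values and open points the same minus the median of all entries. All values lie below 0, and the open points of miR-71-x stay near -0.42 and -0.49 when totals replace TMM factors. Scaling moves all entries nearly alike, so subtracting the median takes out most of that shift by construction.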

How the data were processed

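Small RNAs of 15 to 30 nt were gel-purified, and libraries were sequenced single-end for 50 bp on an Illumina HiSeq, per the labels' protocols. Aligner, counter and reference are not given in the sources used. The authors' deposited counts are raw whole numbers per miRNA entry. The authors' deposited TPM values are the same counts scaled by a library total and not by length, and 0 counts appear as 0.01, which was checked on the table. They served only for an alternative total and for the levels of miR-71-x and miR-71-y given without TMM factors.

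Entries passing edgeR's filter by stage (179, 151 of them of known families) were fitted together in a group-means model over 9 libraries with edgeR 4.0.16 in R 4.3.3 (TMM, robust quasi-likelihood), and p-values were adjusted over all of them. A standard error is the size of the log2 fold change over the root of its F statistic. DESeq2 1.42.0 was an alternative. As reads have no molecular identifiers, counting intervals and limits for 0 counts leave out amplification error.

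The members, lists and tests were chosen with earlier results of these data known. Named were all members, entries nested with them or sharing a seed, the 5 entries most like the main form of each family, and of each list the most abundant entry and any called. Outside this rule, miR-2-z, miR-13-y and miR-14-y were named after their values were seen. Target sites in messenger RNAs were not analysed here.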

Additional observations from a re-analysis of the deposited data

How the results depend on the processing

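The 4 testable entries were refitted with DESeq2, RLE factors, library totals, totals implied by TPM, no filter, a stricter filter, a fit of 2 stages alone, a replicate block, nested entries summed, the most abundant entry left out, and each library left out in turn. In the 3 comparisons 0 members were called under any of these settings. Without the fold limit, 0 members passed an adjusted p of 0.05 in the reported edgeR fit. For the adult against the 3rd instar, 7.82% of all entries passed there. In that comparison miR-71-x passed with DESeq2 (0.00711), RLE factors (0.0458) and the stricter filter (0.0337), over a range of 0.00711 to 0.359. How many of all entries passed in this way under these settings was not counted. In the test over all stages DESeq2 passed 1 member, miR-71-x, among 23 of all 179 entries, and the other settings passed 0 members. Of 222 recomputed log2 fold changes 9 changed sign, each of a value that had not been called. For miR-71-y in the 5th against the 3rd instar, leaving out 1 library gave -0.051 (without 5th instar 2) to 0.36. For miR-263-x in that comparison the value was 0.090 with library totals and 0.087 with totals implied by TPM, and leaving out 1 library gave -0.48 to 0.20, above 0 without 3rd instar 2 or 5th instar 3 (0.063). In the adult against the 5th instar it gave -0.48 to 0.062 for miR-263-x (above 0 without 5th instar 1), -0.13 to 0.0039 for miR-71-x (without adult 2) and -0.47 to 0.27 for miR-71-z (above 0 without 5th instar 2 or adult 2, the latter 0.12). The cause was not tested. miR-71-z gave no value under the stricter filter, nor when summed with miR-71-x.

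Whether same-numbered libraries belong together is not settled by their deviations from the stage means. Of same-numbered pairs, 5 of 9 correlated above 0.1 (-0.23 to 0.42), while differently numbered pairs ranged over -0.43 to 0.28. In both other stages, 2 of 9 libraries correlated best with their own number. With the replicate block, 0 members were called in any comparison, and miR-71-x was at -0.41 in the 5th and -0.45 in the adult against the 3rd instar. Over all entries the calls numbered 3, 2 and 7 in the 3 comparisons (5th against 3rd instar, adult against 5th, adult against 3rd) and ranged over 1 to 10, 0 to 2 and 3 to 20 across settings. They numbered 8 over all stages (4 to 23). At 6 to 67 counts per library, changes of miR-71-z and miR-263-x near the fold limit lie within the intervals.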
